A study of Mus musculus with 48 samples.

Results

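The imprinted Dlk1-Dio3 cluster of mouse chromosome 12 was followed by RNA-seq in wildtype cultures, enriched for neurons, from dorsal root ganglia (DRG) of adult mice, the ganglia that hold the cell bodies of sensory neurons. The 6 members, Dlk1, Meg3, Rtl1, Rian, Mirg and Dio3, were taken by gene symbol from the 34183 genes of each table, and all 6 were found. They were chosen by the level of Rtl1, which was higher after knockdown of Alyref than in siCONTROL, so that knockdown is described without a test. All cultures were wildtype. In the 7 knockdown groups cells were transfected right after isolation with a pool of siRNAs against Atf3, Atf4, Jun, Stat3, Klf6, Rest or Alyref, and siCONTROL cells received the control siRNA. In the mRNA groups cells received mRNA for Atf4 with Cebpg, for Atf4 alone, or for GFP. These 11 groups were collected at 42 h and the remaining group at 0 h, with 4 libraries in each of the 12 groups and 48 in all. Each target was reached with 1 siRNA pool. The labels do not say whether the libraries of a group came from separate animals or cultures, and the p-values below can only speak of the spread among these libraries, which may be technical.

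The cluster carries genes expressed from 1 parental chromosome only. Dlk1 (a transmembrane relative of the Notch ligands), Rtl1 (a Gag-Pol-like protein that descends from a retrotransposon) and Dio3 (a deiodinase that inactivates thyroid hormone) are known as paternally expressed coding genes. Meg3, Rian and Mirg are known as maternally expressed long non-coding RNAs, and Rian and Mirg host small nucleolar RNAs and microRNAs. A further maternal transcript runs antisense to Rtl1 and releases microRNAs that are fully complementary to the Rtl1 mRNA and are known to direct its cleavage. Poly(A) RNA libraries of this kind do not measure mature microRNAs, and the reads were not split by parental chromosome here.

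Between Dlk1 and Dio3 the RefSeq microRNA table (GRCm38.p6) holds 58 hairpins. Of their mature microRNAs, 11 from 6 hairpin genes match the Rtl1 transcript of 6358 nt along their whole length as reverse complements, all in its coding part. They are shown because they are the cluster's own sequences complementary to Rtl1, the member on which most of the results below turn. Each is given 5′ to 3′ with its seed (bases 2 to 8) in capitals and its place on the + strand. Rtl1 itself lies on the − strand.
mmu-miR-431-5p: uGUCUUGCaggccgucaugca, chr12:109590459-109590479
mmu-miR-431-3p: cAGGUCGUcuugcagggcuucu, chr12:109590502-109590523
mmu-miR-433-5p: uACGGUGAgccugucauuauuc, chr12:109591729-109591750
mmu-miR-433-3p: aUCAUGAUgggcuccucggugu, chr12:109591781-109591802
mmu-miR-127-5p: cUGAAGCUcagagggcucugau, chr12:109592854-109592875
mmu-miR-127-3p: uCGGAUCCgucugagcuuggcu, chr12:109592888-109592909
mmu-miR-434-5p: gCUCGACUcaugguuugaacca, chr12:109594528-109594549
mmu-miR-434-3p: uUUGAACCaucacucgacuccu, chr12:109594565-109594586
mmu-miR-432: uCUUGGAGuagaucagugggcag, chr12:109595006-109595028
mmu-miR-136-5p: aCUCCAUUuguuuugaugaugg, chr12:109595331-109595352
mmu-miR-136-3p: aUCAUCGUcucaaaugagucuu, chr12:109595366-109595387
The 11 seeds were all different, so no 2 of these microRNAs fall in the same seed family. The sites ran from mmu-miR-136-3p at nucleotides 164 to 185 of the Rtl1 transcript to mmu-miR-431-5p at nucleotides 5072 to 5092. The libraries were made with a stranded kit, but whether the counting used the strand is not given in the sources used here. Reads of Rtl1 and of the transcript antisense to it therefore cannot be told apart in the values below.

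Depth ran from 1539198 to 6621566 counts per library, and replicate 1 of siKlf6, siRest and Atf4+Cebpg mRNA were the 3 shallowest. The 7 targeted genes stood at 16.8% to 38.9% of their siCONTROL mean, and none of the 7 overlapped siCONTROL. All 15 pan-neuronal markers were detected in every group. Their summed level was 13900 to 17800 CPM (counts scaled to library size) in siCONTROL and 20200 to 23000 CPM at 0 h. Satellite glia markers (10 genes) summed to 1120 to 1300 CPM in siCONTROL and 5430 to 6210 CPM at 0 h, and Schwann cell markers (12 genes) to 2390 to 2680 CPM in siCONTROL and 2740 to 3140 CPM at 0 h. In bulk RNA of this kind, fewer cells of a type and less RNA per cell cannot be told apart. Nor does it show which cells, neurons or others, the RNA of a listed marker came from.

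Rtl1 was at or near 0 in freshly isolated ganglia and was detected in every cultured library. In siCONTROL at 42 h its level was 3.88, 4.77, 4.74 and 3.22 CPM, against 0.0737, 0.0747, 0 and 0 CPM at 0 h. At 0 h all 4 libraries rounded to 0 counts, so the difference is a bound: siCONTROL averaged 4.12 CPM on library totals, at least 26.9-fold higher than the 0.153 CPM that 3 counts over the 0 h group allow. Rtl1 passed the filter on low counts only through siCONTROL and so had to differ, and its call is not counted as support. The deposited value of 0.3 in each of the first 2 libraries at 0 h is close to what 1 read of a transcript of this length was worth.

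**Figure D1:**
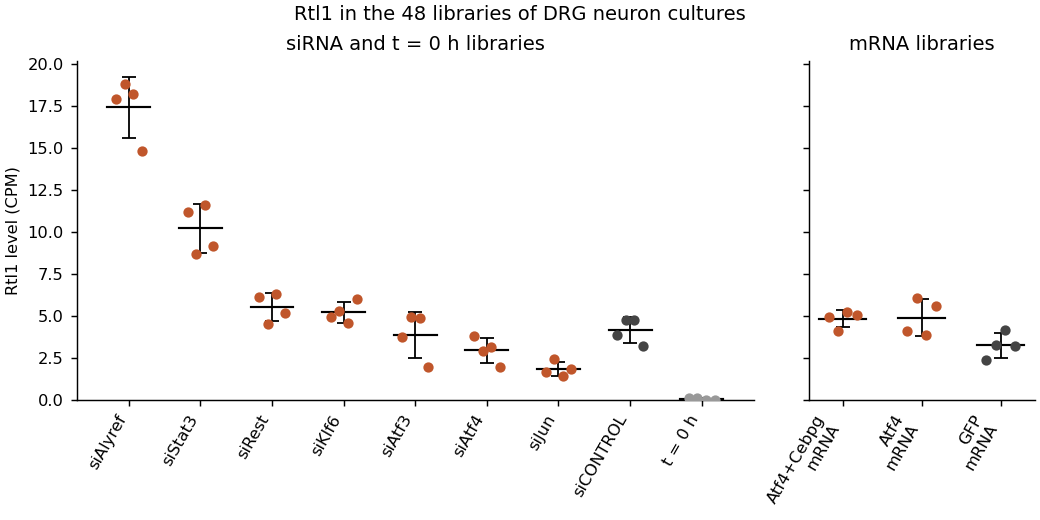
Level of Rtl1 in CPM (vertical axis) in each of the 48 libraries, by group; points are libraries, horizontal lines group means and bars SD (n = 4). The siAlyref libraries sit at 14.8 to 18.8 CPM, siStat3 at 8.67 to 11.6 CPM, siJun at 1.43 to 2.42 CPM, siCONTROL at 3.22 to 4.77 CPM and the 0 h libraries at or below 0.0747 CPM; the mRNA libraries (right) were normalised separately.

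After Alyref knockdown, the contrast that chose the members, Rtl1 stood at 17.9, 18.8, 18.2 and 14.8 CPM, against 3.88, 4.77, 4.74 and 3.22 CPM in siCONTROL. All 4 siAlyref libraries lay above every other library of the siRNA table. The fitted log2 fold change was 2.04, a 4.12-fold difference given as a description, and it stayed between 1.94 and 2.12 in the alternative fits. Alyref is an adaptor that couples mRNA processing to nuclear export. In that comparison 633 of 14876 genes (4.26%) passed the adjusted p of 0.05 by edgeR's quasi-likelihood test. Meg3 was at 194, 199, 143 and 137 CPM in siAlyref and at 265, 258, 257 and 278 CPM in siCONTROL, with no overlap, a log2 fold change of −0.65. Rian was at 246, 252, 220 and 229 CPM in siAlyref and at 282, 294, 284 and 281 CPM in siCONTROL, again without overlap. Its log2 fold change was −0.27. Rian also lay wholly below siCONTROL in siAtf3 (−0.26), siRest (−0.26), siStat3 (−0.23) and siKlf6 (−0.11), and was called in none of them in the main fits. The siCONTROL libraries, shared by all these contrasts, had an SD of 5.89 CPM for Rian. Mirg, at 12.3, 14.3, 9.83 and 7.59 CPM in siAlyref and 12.1, 10.9, 17.8 and 11.7 CPM in siCONTROL, overlapped. The pan-neuronal markers summed to 12400 to 14700 CPM in siAlyref and 13900 to 17800 CPM in siCONTROL, and their part in these values was not tested.

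Rtl1 was also higher after knockdown of Stat3, a transcription factor activated by cytokine signalling and by axon injury. Its level was 11.2, 8.67, 11.6 and 9.13 CPM in siStat3, a mean of 10.2 ± 1.46 CPM, against 4.15 ± 0.746 CPM in siCONTROL (SD, n = 4 each). Every siStat3 library was above every siCONTROL library. The log2 fold change was 1.27 ± 0.22 (SE), 2.41-fold higher, with an adjusted p of 0.00049 in edgeR's quasi-likelihood test, and across all alternatives the adjusted p lay between 1.2e-05 and 0.0163. Rtl1 was the 1 member of 4 tested that was called there, where 3.03% of all genes were called. Meg3 stood at 234, 292, 259 and 219 CPM in siStat3 and overlapped siCONTROL. Rian stood at 255, 251, 205 and 263 CPM in siStat3, all below siCONTROL at 281 CPM or more, but its log2 fold change of −0.23 did not pass the test (edgeR adjusted p = 0.274). Pan-neuronal markers summed to 12800 to 16400 CPM in siStat3 and 13900 to 17800 CPM in siCONTROL, with 2 of 15 lower (Elavl4 with a log2 fold change of −0.51 and Rbfox3 with −0.45). Macrophage markers (8 genes) summed to 47.6 to 69.1 CPM in siStat3 and 27.3 to 46.1 CPM in siCONTROL, without overlap, with C1qa and C1qc at 0 in both groups. Of the 3 macrophage markers that could be tested 0 were called, and their median log2 fold change was −0.17. Gfra3 of the Schwann cell list (−0.37, 1 called of 11 tested) and Rgs5 of the endothelial and mural list (−0.32, 1 of 10) were lower in siStat3. Their part in the Rtl1 difference was not tested.

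Knockdown of Jun, a subunit of the AP-1 transcription factor that is induced by axon injury, went with less Rtl1. The levels were 1.63, 2.42, 1.43 and 1.81 CPM in siJun, a mean of 1.82 ± 0.428 CPM, against 4.15 ± 0.746 CPM in siCONTROL (SD, n = 4 each). The 2 groups did not overlap. The log2 fold change was −1.22 ± 0.25 (SE), with an adjusted p of 0.00147 by edgeR's quasi-likelihood test and a range of 0.000438 to 0.0378 over the alternatives. In siJun 7.78% of all genes were called, and Rtl1 was the 1 member of 4 tested. Even so, siJun stayed above the 0 h libraries, none of which exceeded 0.0747 CPM. Meg3 averaged 272 ± 28.9 CPM in siJun and 264 ± 9.79 CPM in siCONTROL, and Rian 295 ± 11.9 CPM in siJun and 285 ± 5.89 CPM in siCONTROL (SD, n = 4 each). The pan-neuronal markers were mixed in siJun, 2 of 15 higher and 2 lower, with a sum of 12100 to 15300 CPM against 13900 to 17800 CPM in siCONTROL. Satellite glia markers summed to 898 to 1100 CPM in siJun and 1120 to 1300 CPM in siCONTROL, and Schwann cell markers to 1860 to 2240 CPM in siJun and 2390 to 2680 CPM in siCONTROL, both without overlap. Glul was the 1 satellite glia marker of 10 called lower (log2 fold change −1.18), and 0 were called higher, with a list median of 0.15. It alone averaged 165 CPM in siJun and 375 CPM in siCONTROL. Of 11 tested genes of the Schwann cell list Pmp22 (−0.59) and Gap43 (−0.49) were called lower and 0 higher, with a list median of 0.13. Pmp22 averaged 602 CPM in siJun and 905 CPM in siCONTROL. Their part in the Rtl1 difference was not tested.

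The other knockdowns left Rtl1 closer to siCONTROL. It stood at 6.1, 4.49, 6.3 and 5.17 CPM in siRest, at 4.95, 5.27, 4.58 and 6.02 CPM in siKlf6, at 3.72, 4.9, 4.85 and 1.96 CPM in siAtf3 and at 3.77, 2.9, 3.16 and 1.97 CPM in siAtf4. All 4 groups overlapped siCONTROL. The log2 fold changes were 0.37 in siRest, 0.31 in siKlf6, −0.11 in siAtf3 and −0.51 in siAtf4, with edgeR adjusted p of 0.887, 0.699, 0.833 and 0.225 in that order. Ordered by mean in the siRNA table, Rtl1 ran siAlyref, siStat3, siRest, siKlf6, siCONTROL, siAtf3, siAtf4, siJun and 0 h. Neighbours in that order had ranges apart at 3 steps only: siAlyref over siStat3, siStat3 over siRest, and siJun over 0 h. All 7 knockdown contrasts share the 4 siCONTROL libraries, which the contrast that chose the members also used, so they are not independent of it or of each other.

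Meg3, a long non-coding RNA known mainly from the nucleus and reported to bind Polycomb proteins, was lower in cultured than in fresh cells. Its levels were 265, 258, 257 and 278 CPM in siCONTROL, against 392, 376, 359 and 297 CPM at 0 h, with no overlap. The means were 264 ± 9.79 CPM in siCONTROL and 356 ± 41.3 CPM at 0 h (SD, n = 4 each), a log2 fold change of −0.44 ± 0.08 (SE) and an edgeR adjusted p of 0.000951. Culture changed much of the transcriptome: 7781 of 13448 genes (57.9%) were called, and the 3 members whose call the filter did not fix (Meg3 and Rian lower, Mirg higher) are read against that share. The 2 groups differ in time in culture and in transfection, which cannot be told apart.

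Rian, the host of the cluster's C/D box small nucleolar RNAs and of microRNAs, was lower in culture as well. It stood at 282, 294, 284 and 281 CPM in siCONTROL, against 421, 425, 471 and 397 CPM at 0 h. The lowest 0 h library was above the highest siCONTROL library. The log2 fold change was −0.59 ± 0.06 (SE), with an edgeR adjusted p of 1.5e-05.

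Mirg, the most distal of the non-coding hosts, went the other way. It stood at 12.1, 10.9, 17.8 and 11.7 CPM in siCONTROL, against 5.15, 10.3, 8.05 and 7.82 CPM at 0 h, with the highest 0 h library just under the lowest siCONTROL library. The log2 fold change was 0.75 ± 0.24 (SE), with an edgeR adjusted p of 0.0193. That call was lost without siCONTROL replicate 3 (adjusted p 0.0718) and without 0 h replicate 1 (adjusted p 0.0509), over a range of 0.0123 to 0.0718 in all alternatives. Of the 15 pan-neuronal markers 1 was higher and 9 were lower in siCONTROL than at 0 h (median log2 fold change −0.43), and their part in the changes of Meg3, Rian and Mirg was not tested.

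**Figure D2:**
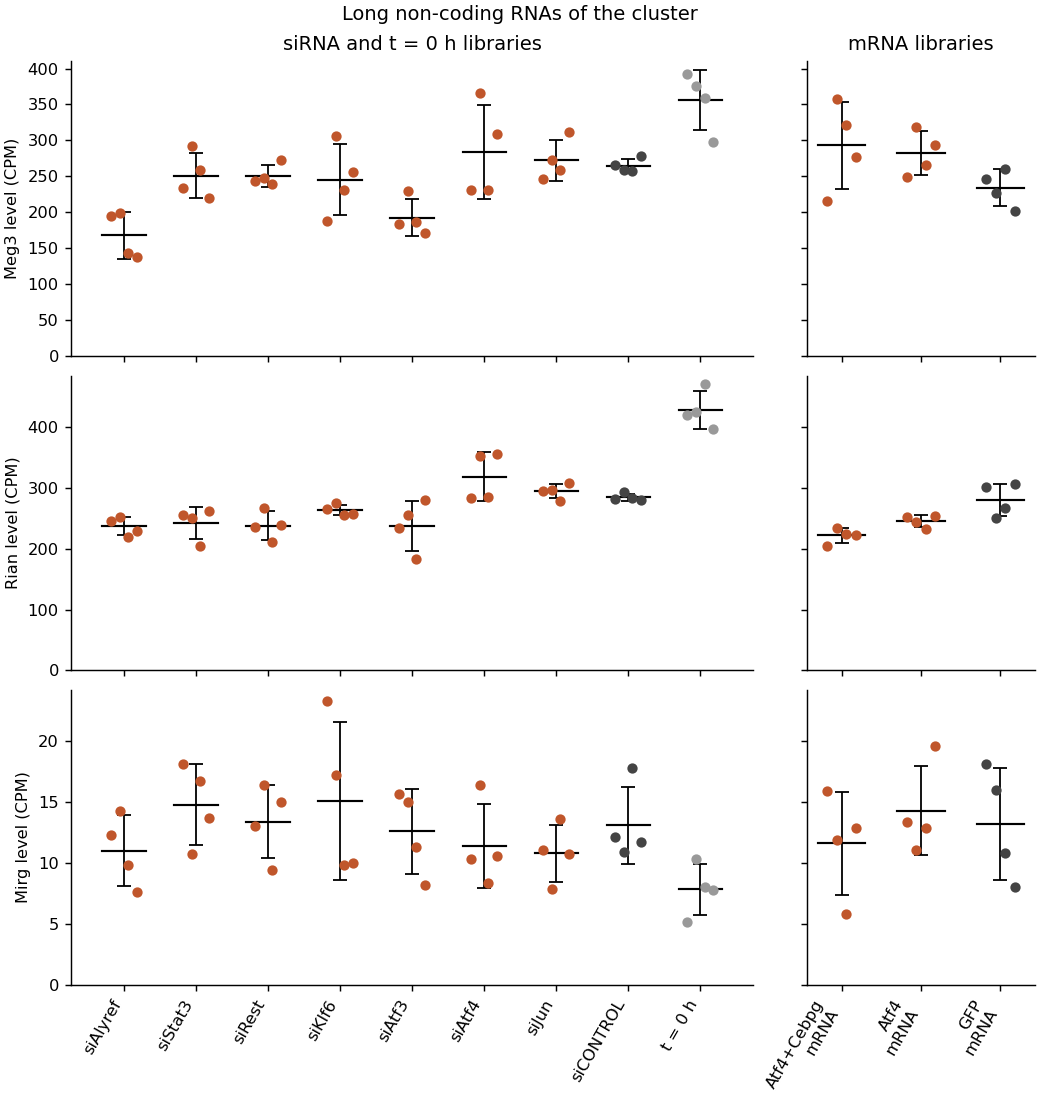
Levels of Meg3, Rian and Mirg in CPM (vertical axes) in each library, by group; points are libraries, horizontal lines means and bars SD (n = 4). Meg3 and Rian are highest at 0 h, Mirg is lowest there, and Meg3 is lowest in siAlyref and siAtf3; mRNA libraries (right) were normalised separately.

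Atf3 knockdown was the 1 tested siRNA contrast in which Meg3 was called. Atf3 is an injury-induced transcription factor of the ATF/CREB family. Meg3 stood at 183, 230, 186 and 171 CPM in siAtf3, against 265, 258, 257 and 278 CPM in siCONTROL, with no overlap. The means were 192 ± 25.8 CPM in siAtf3 and 264 ± 9.79 CPM in siCONTROL (SD, n = 4 each), a log2 fold change of −0.46 ± 0.14 (SE). The edgeR adjusted p was 0.0355, close to the threshold, and 11.5% of all genes were called in siAtf3. The call was lost with no filter on low counts (adjusted p 0.0605) and when any 1 of siCONTROL replicates 1, 2 or 4 or siAtf3 replicates 1, 3 or 4 was left out (adjusted p 0.0598 to 0.108), within a range of 0.00791 to 0.108 over all alternatives. Rian stood at 234, 255, 183 and 280 CPM in siAtf3, all below siCONTROL, with a log2 fold change of −0.26 and an edgeR adjusted p of 0.0838. It passed without siAtf3 replicate 4 (adjusted p 0.0217, in a range of 0.00925 to 0.341). In siAtf3 7 of 15 pan-neuronal markers were lower, led by Syt1 (log2 fold change −0.75), Nefl (−0.62) and Isl1 (−0.62). Their sum was 11400 to 14500 CPM in siAtf3 and 13900 to 17800 CPM in siCONTROL. Satellite glia markers summed to 838 to 968 CPM in siAtf3 and 1120 to 1300 CPM in siCONTROL, without overlap. Glul (log2 fold change −1.12) and Erbb3 (−0.45) were lower of 10, with a list median of −0.04. Genes of the Schwann cell list summed to 1780 to 2070 CPM in siAtf3 and 2390 to 2680 CPM in siCONTROL, also without overlap. Of 11 tested, 3 were lower (Gfra3 with −0.57, Pmp22 with −0.53 and Gap43 with −0.43) and 1 higher, with a list median of −0.02. The part of these markers in the Meg3 difference was not tested.

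Of the 2 promoter windows that RefSeq gives for Meg3, the first along the + strand is shown because its RNA was called in the knockdown of a factor of the ATF/CREB family. RefSeq (GRCm38.p6) places it at chr12:109540746-109541045 on the + strand, from 250 bases before to 50 bases after the start. Capitals mark the single match to the cyclic AMP response element TGACGTCA, a palindrome that begins 57 bases before the start.
Meg3 promoter: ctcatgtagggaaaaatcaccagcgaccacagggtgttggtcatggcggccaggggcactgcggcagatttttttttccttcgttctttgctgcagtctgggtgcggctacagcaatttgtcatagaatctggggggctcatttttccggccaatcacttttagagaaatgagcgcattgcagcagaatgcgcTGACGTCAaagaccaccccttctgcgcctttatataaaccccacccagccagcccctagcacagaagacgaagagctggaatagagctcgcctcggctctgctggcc
Among 32841 promoter windows of the same length, 1.79% hold TGACGTCA. The window was also searched on both strands for an AP-1 element (TGANTCA, in 7.81% of windows), a STAT element (TTCNNNGAA, in 8.3%) and a C/EBP-ATF composite element (TGATGNAA, in 3.97%), none of which it holds. The second Meg3 window, at chr12:109545148-109545447, holds no match to any of the 4 elements. The search covered 6 windows of 5 members, and the 1 further match was a STAT element in the window of Rian. Rtl1 had no window in the set used, so its promoter was not searched for any of the 4 elements. A match to letters is a description and says nothing of binding in these cells.

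In siAtf4, siKlf6 and siRest no member was called by edgeR's quasi-likelihood test or by DESeq2, where 6.91%, 1.85% and 0.202% of all genes were called. At an unadjusted p under 0.05 there was 1 member in siAtf4 (Rtl1, log2 fold change −0.51), 0 in siKlf6 and 1 in siRest (Rian, log2 fold change −0.26), where 18.5%, 12% and 6.10% of all genes were under it. Meg3 in siAtf4 spread widely, at 231, 366, 231 and 309 CPM, on both sides of siCONTROL. Rian in siAtf4 stood at 283, 353, 285 and 356 CPM. In siAtf4 both RNAs were high in replicates 2 and 4 and low in replicates 1 and 3. Mirg overlapped siCONTROL in all 7 knockdowns, with means of 10.8 to 15.1 CPM against 13.1 ± 3.15 CPM in siCONTROL.

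Overexpression of Atf4 together with Cebpg, a C/EBP family protein that pairs with Atf4, went with less Rian. It stood at 204, 235, 224 and 223 CPM in Atf4+Cebpg, against 301, 251, 268 and 306 CPM in GFP, without overlap. The log2 fold change was −0.34 ± 0.07 (SE), with an edgeR adjusted p of 0.00489, in a comparison where 24.6% of all genes were called. Rian was the 1 member of 4 tested that was called, so the share of members was about that of all genes. Meg3 stood at 216, 357, 321 and 277 CPM in Atf4+Cebpg and at 246, 226, 260 and 201 CPM in GFP, a log2 fold change of 0.33 that did not pass (edgeR adjusted p = 0.0866). Without Atf4+Cebpg replicate 1, the shallow library, it did (adjusted p 0.0116, in a range of 0.0116 to 0.221). Rtl1 was at 4.92, 4.1, 5.23 and 5.07 CPM in Atf4+Cebpg, against 2.36, 3.28, 4.14 and 3.19 CPM in GFP, and just overlapped it (log2 fold change 0.57, edgeR adjusted p = 0.142). Schwann cell markers summed to 3130 to 6320 CPM in Atf4+Cebpg and 2780 to 3680 CPM in GFP, and overlapped. Endothelial and mural markers summed to 277 to 323 CPM in Atf4+Cebpg and 188 to 264 CPM in GFP, without overlap, with 3 of 9 higher (Cdh5 with a log2 fold change of 0.61, Pecam1 with 0.59 and Kdr with 0.5). Of 15 pan-neuronal markers Tubb3 (−0.68) and Elavl3 (−0.59) were called lower and Rbfox3 (0.36) higher in Atf4+Cebpg. Of 10 satellite glia markers Glul (−1.22) was called lower and Apoe (0.7) higher, with a list median of 0.19. The part of these markers in the Rian difference was not tested.

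Atf4 mRNA alone called no member by edgeR or DESeq2, while 4.84% of all genes were called. Rtl1 stood at 4.11, 6.05, 3.84 and 5.58 CPM in Atf4, against 2.36, 3.28, 4.14 and 3.19 CPM in GFP (log2 fold change 0.61, edgeR adjusted p = 0.216). Rian stood at 253, 244, 233 and 254 CPM in Atf4 and overlapped GFP (log2 fold change −0.19, edgeR adjusted p = 0.165). These 2 members had an unadjusted p under 0.05, as did 19.4% of all genes. Set directly against Atf4 alone, Atf4+Cebpg called no member by either tool, where 6.60% of all genes were called. None had an unadjusted p under 0.05, against 20.9% of all genes. The 2 comparisons with GFP share the 4 GFP libraries.

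**Figure D3:**
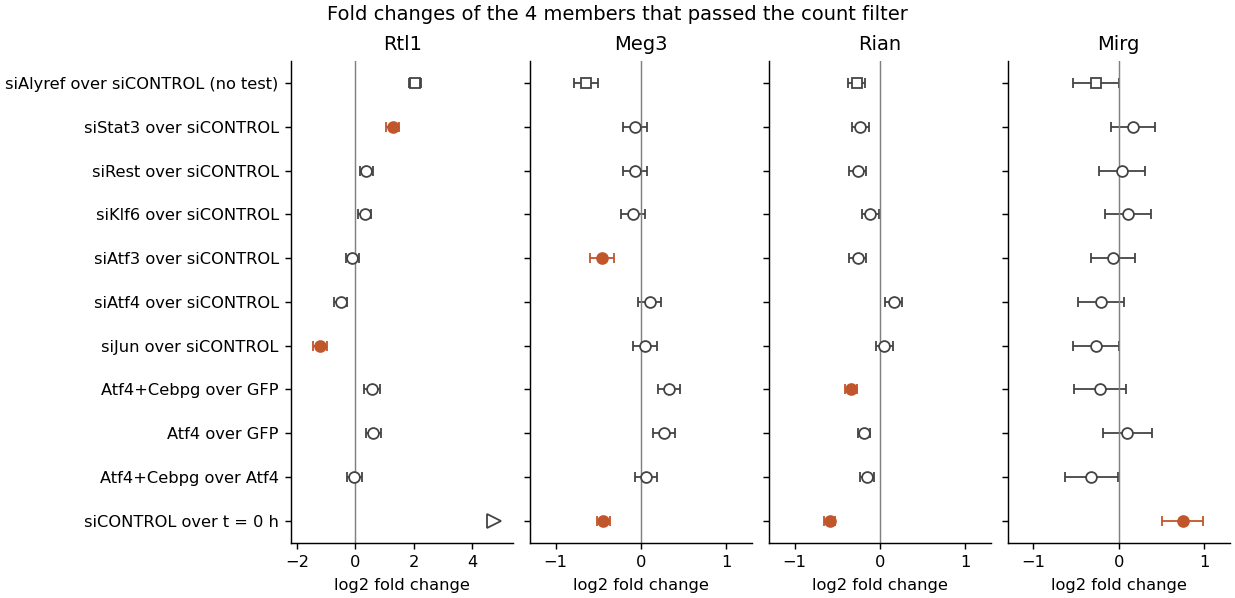
Log2 fold change (horizontal axes, bars SE) of Rtl1, Meg3, Rian and Mirg in the 11 comparisons; filled circles passed an edgeR adjusted p of 0.05, open circles did not, open squares were not tested, and the open arrowhead marks the lower bound of 26.9-fold for Rtl1 in culture, where the filter fixed the call. Rtl1 is filled in siStat3 (1.27) and siJun (−1.22), Meg3 in siAtf3 (−0.46), Rian in Atf4+Cebpg (−0.34), and Meg3, Rian and Mirg in culture.

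Dlk1 and Dio3, the genes at either end of the cluster, were below the filter on low counts in all 3 fits and were not tested. Dlk1 was above 0 in 21 of 48 libraries. In siAlyref it stood at 0.415, 0.509, 0.444 and 2.34 CPM, the last being its highest value in the series and a deposited count of 11.2. In siCONTROL it stood at 0, 0.404, 0.291 and 0.123 CPM, against 1.31, 1.24, 0.111 and 0.437 CPM at 0 h. In siAtf3 and in GFP all 4 libraries were at 0, which allows up to 0.139 CPM in siAtf3 and 0.15 CPM in GFP (3 counts over the group). Dio3 was above 0 in 1 library, siJun replicate 4, at 0.285 CPM or a deposited count of 1.5. In siCONTROL and at 0 h the count of 0 allows up to 0.148 and 0.153 CPM of Dio3. So of the 3 coding genes Rtl1 alone reached a level that could be tested, and these limits cover counting error only.

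Over the 32 siRNA libraries at 42 h the members' log2 levels were related as follows, as a description in libraries that share normalisation, depth and groups. Meg3 and Rian had a Pearson r of 0.57 (Spearman 0.53), and 0.34 on deviations from group means. Rian and Rtl1 had an r of −0.6 (Spearman −0.75), and −0.52 within groups. Meg3 and Rtl1 had an r of −0.49 (Spearman −0.39), but 0.06 within groups, so this relation lay between the groups, among them siAlyref. Mirg had r of 0.21 with Meg3, −0.01 with Rian and 0.13 with Rtl1.

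Among 14875 other genes, the 5 whose pattern was most like that of Rtl1 were Pomgnt2 (r = 0.8), a glycosyltransferase of the dystroglycan pathway, Slc6a17 (r = 0.8), a vesicular amino acid transporter, Hspb8 (r = 0.78), a small heat shock protein, Hagh (r = 0.78), an enzyme of methylglyoxal detoxification, and Psmd8 (r = 0.76), a proteasome subunit. Within groups their r with Rtl1 lay between −0.01 and 0.39. For Meg3 the 5 were Gpr158, an orphan receptor (r = 0.78), Snhg11, a neuronal long non-coding RNA (r = 0.77), Akap12, a kinase-anchoring protein (r = 0.76), Rcan2, a calcineurin regulator (r = 0.74), and Ano8, an anoctamin (r = 0.74). Within groups their r with Meg3 lay between 0.29 and 0.57. Rian ranked 140th by likeness to Meg3.

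The genes that flank the cluster on either side were then set beside it. In culture 11 of 12 could be tested, and 1 was higher and 4 were lower in siCONTROL than at 0 h (median log2 fold change −0.02, against 0.01 over all genes, of which 57.9% were called). Wars, a tryptophanyl-tRNA synthetase, was higher (235 ± 16.7 CPM in siCONTROL and 118 ± 3.75 CPM at 0 h). Begain, the neighbour of Dlk1, was lower by the widest margin (3.15 ± 0.942 CPM in siCONTROL and 10.3 ± 1.18 CPM at 0 h, log2 fold change −1.75). Slc25a29 (−0.82), Evl (−0.6) and Ppp2r5c (−0.35) were lower too. Yy1, Slc25a47, Wdr25, Dync1h1, Hsp90aa1 and Wdr20 did not pass the test, and Degs2 was not tested. In siAtf3 Evl (−0.34) and Ppp2r5c (−0.22) were lower, and in siJun Ppp2r5c (−0.26), against 11.5% of all genes called in siAtf3 and 7.78% in siJun. In siAtf4 Wars was lower (133 ± 9.41 CPM in siAtf4 and 235 ± 16.7 CPM in siCONTROL) and Evl higher (log2 fold change 0.3), against 6.91% of all genes called, while in Atf4+Cebpg Begain was higher (0.96) and Wars (−0.37), Ppp2r5c (−0.5), Dync1h1 (−0.44) and Evl (−0.32) were lower than in GFP, 5 of 11 tested against 24.6% of all genes. In Atf4 alone Ppp2r5c was lower than in GFP (−0.28), 1 of 11 tested against 4.84% of all genes.

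Imprinted genes outside the cluster gave 7 higher and 14 lower of 28 tested in culture (median log2 fold change −0.56), against 57.9% of all genes called. Nnat, a membrane proteolipid of developing neurons, stood at 6.85 ± 0.456 CPM in siCONTROL and 44.9 ± 9.53 CPM at 0 h. Nap1l5 stood at 75.5 ± 3.67 CPM in siCONTROL and 313 ± 20.7 CPM at 0 h, and Grb10, an adaptor of insulin receptor signalling, at 63.3 ± 5.99 CPM in siCONTROL and 20.8 ± 3.13 CPM at 0 h. In siJun, where Rtl1 was lower, Nap1l5 (log2 fold change 0.92) and Slc22a18 (0.69) were higher, 2 of 32 tested against 7.78% of all genes called. In siStat3, where Rtl1 was higher, Peg3 was higher (0.4) and Commd1 lower (−0.52), again of 32 tested, against 3.03% of all genes called. In siAtf3 Slc22a18 was higher (0.58) and Airn (−1.56) and Nnat (−1.32) were lower. They were among 2 higher and 3 lower of 32, against 11.5% of all genes called. In Atf4+Cebpg 6 of 28 were higher and 4 lower, against 24.6% of all genes called. Of the 6, Zdbf2 passed the filter on low counts only through Atf4+Cebpg, where it was high, so its call is not counted as support. The called genes were led by Zdbf2 (4.66 ± 1.3 CPM in Atf4+Cebpg and 0.9 ± 0.236 CPM in GFP), Zim1 (16.4 ± 4.41 CPM in Atf4+Cebpg and 3.36 ± 1.63 CPM in GFP) and Nap1l5 (log2 fold change 1.42), all higher.

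Further lists were drawn around the members' known roles and are given for culture, siCONTROL against 0 h, where 57.9% of all genes were called. Among Gag genes that descend from retrotransposons, 7 were lower of 12 tested (median −0.57), and 1 was higher beside Rtl1, whose call is not counted. Rtl8c, a relative of Rtl1, was lower (112 ± 12.4 CPM in siCONTROL and 267 ± 17.3 CPM at 0 h), as was Pnma1. Pnma1, among the 7 lower, averaged 0.986 ± 0.492 CPM in siCONTROL and 4.87 ± 1.55 CPM at 0 h. It passed the filter on low counts only through 0 h, so its call is not counted as support. In siAtf3 Rtl9 (log2 fold change −0.97) and Arc (−0.83) were lower and Rtl5 higher (0.63), of 11 tested, against 11.5% of all genes called. In Atf4+Cebpg Arc (−1.05) and Rtl8a (−0.26) were lower and Rtl9 (0.95) higher, of 11 tested, against 24.6% of all genes called. In siStat3 and siJun, Rtl1 was the 1 gene of this list that was called, of 11 tested. Of all genes 3.03% were called in siStat3 and 7.78% in siJun. Of 20 regulators of imprints or of the cluster, 7 were higher and 5 lower in culture (median 0.14). The largest change was in Uhrf1, which keeps DNA methylation through replication (log2 fold change 3.69). At 0.793 ± 0.466 CPM at 0 h, Uhrf1 passed the filter on low counts only through siCONTROL, so its call is not counted as support. Next came the Polycomb methyltransferase Ezh2 (1.66) and Tet3 (1.49), an oxidase of methylated DNA.

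The pathways of Dlk1 and Dio3, whose own levels were too low to test, are read against the 57.9% of all genes called in culture. Notch genes gave 5 higher and 5 lower of 16 in culture (median −0.14). Of the 5 lower, Hes5 passed the filter on low counts only through 0 h, so its call is not counted as support. Notch2 was higher (7.41 ± 1.02 CPM in siCONTROL and 2.39 ± 0.0721 CPM at 0 h), Hey2 was lower (5.08 ± 1.74 CPM in siCONTROL and 15.7 ± 1.5 CPM at 0 h), and Hes5 was at 0 in siCONTROL and at 3.38 ± 1.02 CPM at 0 h. Thyroid hormone genes gave 3 higher and 5 lower of 10 (median −0.36). Crym, a thyroid hormone binding protein, was higher (38.1 ± 2.5 CPM in siCONTROL and 9.21 ± 3.42 CPM at 0 h), while the receptor Thra was lower (131 ± 3.95 CPM in siCONTROL and 366 ± 39.5 CPM at 0 h). Thra was also lower in siAtf3 (log2 fold change −0.67), but higher in siAtf4 (0.26). Its known target Klf9 was lower in siAtf3 (−0.52) and in siJun (−0.81), where Thra was not called. Of 11 thyroid hormone genes tested, 3 were lower and 0 higher in siAtf3, against 11.5% of all genes called. In siJun 3 were lower and 0 higher, against 7.78%, and in siAtf4 1 was lower and 1 higher, against 6.91%. A link between Thra and Klf9 was not tested.

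Other polyadenylated long non-coding RNAs gave 1 higher and 5 lower of 7 in culture (median −0.67), where 57.9% of all genes were called. Norad (log2 fold change −1.22), Snhg14 (−1.12) and Firre (−0.97) were lower. MicroRNA biogenesis genes gave 4 higher and 1 lower of 12 (median 0.13), with Dgcr8 (0.84), Tarbp2 (0.77) and Dicer1 (0.66) higher. Of 13 genes of nuclear RNA decay and polyadenylation, 9 were higher (median 0.49), with Exosc3 (1.12), Xrn2 (0.98) and Dis3 (0.92) in front. Markers of other cells gave in culture 3 higher and 6 lower of 10 for satellite glia, 2 and 8 of 12 for Schwann cells, 3 and 2 of 7 for fibroblasts, 5 and 2 of 9 for endothelial and mural cells, 2 and 2 of 4 for macrophages and 1 and 2 of 3 for adrenal and pituitary endocrine cells. All 4 tested red cell markers were lower. Among the markers called, at least Hbb-bt, C1qa, C1qb, Mag and Cd68 passed the filter on low counts only through the group where they were high. Their calls are not counted as support. Fabp7 of satellite glia stood at 11.9 ± 2.97 CPM in siCONTROL and 489 ± 56 CPM at 0 h, and Pecam1 of endothelium at 64.6 ± 14.3 CPM in siCONTROL and 12 ± 0.696 CPM at 0 h. Their part in the cluster's changes in culture was not tested.

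**Figure D4:**
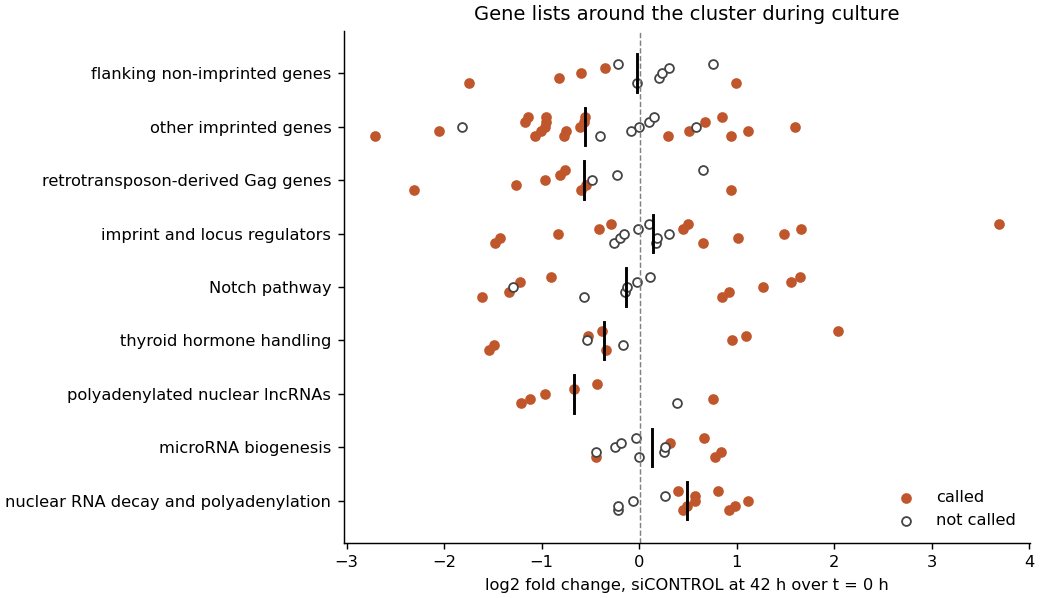
Log2 fold change of siCONTROL at 42 h over 0 h (horizontal axis) for each tested gene of 9 lists; filled points passed an edgeR adjusted p of 0.05, black bars are list medians and the dashed line is the median of all genes (0.01). Rtl1 and Hes5, each with 1 group at 0, are left out of the points. Other imprinted genes and the list of long non-coding RNAs (the row labelled nuclear) have medians of −0.56 and −0.67.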

How the data were processed

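RNA was measured in 48 libraries of mouse DRG cells, prepared with a stranded poly(A) kit, per the labels. The deposited tables hold estimated counts per gene, made by the authors with kallisto on GRCm39, per the submitters' processing notes. Its version and annotation, the strand setting and the scaling step were not given in the sources used here. Among 3003 genes with 1 transcript, low deposited values clustered where value times transcript length was 1917 to 2249 nt, so 1 read counted for less in a long transcript. For Rtl1 1 read was worth about 0.3 to 0.35, so its values stand on about 3 times as many reads. Gene IDs were paired with symbols for 32470 of 34183 genes, and all 48 columns were matched to the labels.

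Counts were rounded to whole numbers, filtered (filterByExpr, minimum count 10), scaled by TMM and tested with edgeR's quasi-likelihood F test (edgeR 4.0.16, limma 3.58.1, R 4.3.3), adjusted by Benjamini-Hochberg over all genes at 0.05. Fits were siCONTROL with 0 h (13448 genes), siCONTROL with the 7 knockdowns (14876) and the 3 mRNA groups (13857). CPM are on TMM library sizes within each table, and levels are not compared between genes or tables. Depth was 1539198 to 6621566 counts per library, and bounds of 3 counts cover counting error only. Alternatives were DESeq2 1.42.0, its size factors, no filter, a replicate block, the groups alone and leaving out each library. Likeness was Pearson r of log2 CPM with a prior count of 2. Figures and tables were made with Python 3.11.15 and matplotlib 3.10.9.

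The members and all gene lists were chosen with earlier results of these data known. Named in the text were the members in every comparison, every flanking gene, the 5 genes most like Meg3 and Rtl1, and in each list at most 3 called genes by size of log2 fold change, a part of which is printed. GRCm38 sequences from RefSeq were used as letters only, with their own coordinates.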

Additional observations from a re-analysis of the deposited data

Results flagged for a closer look

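Of 59 sets of 4 libraries examined, each a member in a group, 7 held a library whose gap to the nearest of the others exceeded the 95% critical value of Dixon's test. In 6 of the 7 the other 3 libraries were at 0, so the gap was the whole range by construction, and the rate of about 1 in 20 that chance gives does not apply to them. Dlk1 in siAlyref replicate 4 was at 2.34 CPM, while the other 3 libraries were at 0.415 to 0.509 CPM. In 5 groups a single library held all the Dlk1 that was seen: 0.137 CPM in siStat3 replicate 2, 0.486 CPM in siKlf6 replicate 2, 0.0905 CPM in siRest replicate 4, 0.446 CPM in siAtf4 replicate 1 and 0.451 CPM in siJun replicate 1. Dio3 was seen in siJun replicate 4 alone, at 0.285 CPM.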

How the results depend on the processing

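No member's called difference changed sign under any alternative, and the levels of 48 member and group pairs on column totals all stayed within 1 SD. Rtl1 in siStat3 and siJun, Meg3 and Rian in culture and Rian in Atf4+Cebpg kept their calls in every alternative. The members called in siAtf3 were 0 with no filter and 2 with the replicate number as a block, against 1. Genes called in all, with only the compared groups in the fit, were 204 in siStat3 (450 with all groups), 18 in siKlf6 (275), 5 in siRest (30) and 352 in siAlyref (633). In siRest they were 18 with no filter and 55 with DESeq2. Leaving out 1 library gave 0 to 1 members called in siAtf3 and 1 to 2 in Atf4+Cebpg, and 160 to 284 genes in siKlf6, 15 to 24 in siRest, 339 to 572 in Atf4 and 553 to 961 in Atf4+Cebpg against Atf4. Counts fell by over 1.5 times without siKlf6 replicate 4, without siCONTROL replicates 1 or 3 or siRest replicates 1, 2 or 3 in siRest, without GFP replicates 1, 2 or 4 or Atf4 replicates 2 or 4 in Atf4, and without Atf4+Cebpg replicates 2 or 4 against Atf4. The cause was not tested.

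Replicate numbers were not taken to pair the libraries, since no comparison had every same-numbered pair's correlation over 0.1 (0.0309 to 0.178 in all). In siRest and the 3 mRNA comparisons all 4 libraries correlated best with their own number, as did all 3 with a shared number in siKlf6. In culture, siAtf3, siJun, siStat3 and siAlyref 3 of 4 did, and in siAtf4 2 of 4. The main fits do not take up this sign of pairing from the data. With the replicate block more genes were called in every comparison than in the main fits. They were 751 in siStat3, 46 in siRest and 1028 in Atf4, and Rian was called in siAtf3 (edgeR adjusted p 0.00925).

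Rtl1 rests on deposited counts of 8.4 to 55.1 per library in siJun and siStat3, and Dlk1 and Dio3 are limited by depth.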
